A study of Mus musculus with 50 samples.

Results

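The collagen and laminin genes of mouse ESCs were taken as every gene of the RNA-seq count table whose symbol is that of a collagen alpha chain or of a laminin alpha, beta or gamma chain. This gave 52 genes, 41 for collagens and 11 for laminins, of 18055 genes in the table. By chain type they were 10 fibril-forming collagens, 6 collagen IV chains, 6 collagen VI chains, 8 FACIT collagens (which sit on the surface of fibrils), 4 transmembrane collagens, 3 short-chain collagens, the anchoring fibril collagen Col7a1, the multiplexin Col18a1 and 2 others. The laminins were 5 alpha, 3 beta and 3 gamma chains. All 52 had an annotated start site in the mm9 build, and the genes were long, with a median of 114 kb (range 7.11 to 636 kb) against 20.7 kb over all genes matched.

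The cells were the E14 wild-type line (WT) and CRISPR/Cas9-edited clones of it, kept on gelatin in 2i/LIF medium. The Ezh2 KO line lacks EZH2, 1 of the 2 alternative methyltransferases of Polycomb Repressive Complex 2 (PRC2), and the Ezh1/2 dKO line lacks both. The Ezh2 Y726D line carries a catalytically dead EZH2 and the Ezh2 R685C line another EZH2 substitution, both in cells without Ezh1. The labels of the SUZ12 and H3K27me3 samples of Ezh2 Y726D name the substitution but not the Ezh1 knockout. Each mutant line is a clone, so that a property of the clone and of its genotype cannot be told apart. RNA-seq had 2 libraries per line and covered WT and every mutant line but Ezh2 R685C. Peak lists had 1 library per line and target, for SUZ12 (the PRC2 subunit common to both enzymes) and H3K27me3 in all 5 lines and for H3K27ac in the 4 mutant lines. HA peaks were listed for Ezh1/2 dKO cells given back an HA-tagged EZH1 and for the same cells without it, and H3K27me1, H3K27me2 and ATAC-seq regions for the 4 lines that also had RNA-seq. With 1 library per line, peaks are a description with no test.

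As background, laminins are trimers of an alpha, a beta and a gamma chain that form the first sheet of a basement membrane, and collagen IV, most often 2 alpha1 chains with 1 alpha2 chain, forms the second. Fibril-forming collagens build the cables of connective tissue and are hallmarks of mesenchyme and cartilage rather than of ESCs. The early embryo makes its first basement membranes from laminin alpha1, beta1 and gamma1 and from collagen IV alpha1 and alpha2. PRC2 places H3K27me3 at CpG-rich promoters of developmental genes that are silent in ESCs.

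The promoter DNA of these genes ranges from CpG-dense to CpG-poor. To show this range, 300 bases are printed for 7 genes, 5′ to 3′ on the strand of the gene, from the mm9 assembly, with every CpG in capitals. For 6 of them these are the bases before the outermost annotated start site. For the collagen IV pair Col4a1 and Col4a2, whose start sites lie 21 bp apart in opposite directions, a stretch of the first intron of Col4a2 is shown, because it lies inside the SUZ12 peak of WT cells and the H3K27ac peak of the Ezh2 Y726D line, with 272 of its bases inside the H3K27ac peak of the Ezh1/2 dKO line. None of the printed bases is annotated as UTR.

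Col4a2, first intron (chr8:11313117-11313416, plus strand) and Lamb1, upstream (chr12:31949799-31950098, plus strand) come from basement membrane genes with SUZ12 in WT cells. They hold 18 and 19 CpGs. The 300 bases upstream of Col4a2 and of Col4a1, which are not printed, hold 30 and 35 CpGs.
Col4a2: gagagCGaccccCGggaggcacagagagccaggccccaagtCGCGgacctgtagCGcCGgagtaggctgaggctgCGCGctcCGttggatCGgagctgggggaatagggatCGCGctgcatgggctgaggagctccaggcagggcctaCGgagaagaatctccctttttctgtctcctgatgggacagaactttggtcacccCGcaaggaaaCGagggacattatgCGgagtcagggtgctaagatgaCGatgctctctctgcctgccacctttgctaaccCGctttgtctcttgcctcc
Lamb1: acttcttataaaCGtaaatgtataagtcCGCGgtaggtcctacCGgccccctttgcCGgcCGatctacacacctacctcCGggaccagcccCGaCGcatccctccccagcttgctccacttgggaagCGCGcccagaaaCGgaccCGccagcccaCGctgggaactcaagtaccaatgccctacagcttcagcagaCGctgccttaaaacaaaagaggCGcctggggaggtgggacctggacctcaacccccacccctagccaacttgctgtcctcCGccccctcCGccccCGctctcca

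Col2a1 (chr15:97835156-97835455, minus strand), Col5a1 (chr2:27741645-27741944, plus strand) and Col26a1 (chr5:137359080-137359379, minus strand), all upstream, also had SUZ12 in WT cells. They hold 17, 30 and 7 CpGs.
Col2a1: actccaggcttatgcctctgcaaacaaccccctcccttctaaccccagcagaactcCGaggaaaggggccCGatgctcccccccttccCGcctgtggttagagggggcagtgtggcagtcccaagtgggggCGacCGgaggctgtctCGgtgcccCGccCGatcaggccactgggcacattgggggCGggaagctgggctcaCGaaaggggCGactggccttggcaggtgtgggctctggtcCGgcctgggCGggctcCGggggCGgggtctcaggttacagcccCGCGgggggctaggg
Col5a1: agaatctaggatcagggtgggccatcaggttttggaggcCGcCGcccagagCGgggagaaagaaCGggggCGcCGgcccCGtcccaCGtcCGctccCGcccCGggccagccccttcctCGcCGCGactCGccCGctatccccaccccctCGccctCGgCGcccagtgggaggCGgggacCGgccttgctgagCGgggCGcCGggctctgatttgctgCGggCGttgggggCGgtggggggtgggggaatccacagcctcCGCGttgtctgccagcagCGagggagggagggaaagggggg
Col26a1: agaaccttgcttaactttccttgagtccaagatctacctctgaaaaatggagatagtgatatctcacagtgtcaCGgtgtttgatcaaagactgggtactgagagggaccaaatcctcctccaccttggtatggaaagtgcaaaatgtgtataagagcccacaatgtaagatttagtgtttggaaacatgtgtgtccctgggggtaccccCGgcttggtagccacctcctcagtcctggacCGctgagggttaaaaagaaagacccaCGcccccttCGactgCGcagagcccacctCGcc

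Col11a1 (chr3:113733158-113733457, plus strand) and Col5a2 (chr1:45560128-45560427, minus strand), upstream, come from genes that were higher in the Ezh1/2 dKO line without SUZ12 or H3K27me3 in WT cells. They hold 10 CpGs and 1 CpG.
Col11a1: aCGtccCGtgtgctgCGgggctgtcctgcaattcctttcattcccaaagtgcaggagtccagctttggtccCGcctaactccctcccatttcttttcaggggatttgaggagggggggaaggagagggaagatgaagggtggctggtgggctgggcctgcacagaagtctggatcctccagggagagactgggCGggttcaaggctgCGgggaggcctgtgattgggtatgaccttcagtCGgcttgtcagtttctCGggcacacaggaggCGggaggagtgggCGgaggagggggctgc
Col5a2: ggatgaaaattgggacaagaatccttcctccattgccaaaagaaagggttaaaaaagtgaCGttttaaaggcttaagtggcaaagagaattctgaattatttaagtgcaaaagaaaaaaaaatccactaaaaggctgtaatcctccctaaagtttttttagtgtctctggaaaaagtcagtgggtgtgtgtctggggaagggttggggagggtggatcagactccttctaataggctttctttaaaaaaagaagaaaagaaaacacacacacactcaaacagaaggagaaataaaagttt

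Over the 52 genes, the 300 bases upstream held a median of 10.5 CpGs, against 13 over all genes. At least 1 CpG was present in 96.2% of the collagen and laminin promoters and in 97.8% of all promoters of this length. A CpG reads the same on both strands, and its presence is a description of the letters, not a binding site.

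The libraries held 3604123 to 5181553 reads assigned to genes. The targeted genes followed the labels. Ezh2 stood at 598 and 546 normalised counts in WT, 422 and 613 in Ezh2 Y726D, and at 1.05 and 0.968 in Ezh2 KO and 0.824 and 1.78 in Ezh1/2 dKO. Ezh1 stood at 227 to 378 in WT and Ezh2 KO and at 14 to 24.1 in the other 2 lines. A substitution cannot be read from counts per gene. The 9 pluripotency markers, Pou5f1 and Nanog among them, summed to 15777 and 17235 normalised counts in WT and to 13666 to 16222 in the mutant lines, and none of the 9 passed the test in any comparison. The labels do not say whether the 2 libraries of a line came from separate cultures. The study's reporting summary states that its experiments were repeated and its sequenced samples run in biological replicates. The p-values measure the spread between these libraries.

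Most collagen genes were close to silent. Of the 52 genes, 29 had a mean of at least 5 normalised counts over the 8 libraries and were tested, 20 collagens and 9 laminins, against 76.8% of all genes. Col5a2 passed this minimum through its level in Ezh1/2 dKO. The other 23 genes had means of at most 4.06. Of these, 8 had at most 10 reads in all libraries together, and none had 0 reads throughout. Col1a1 and Col1a2, the chains of collagen I, had 29 and 17 reads in all. The collagen VI chains Col6a1, Col6a2 and Col6a3 had 8, 19 and 21 reads, and Col4a3 to Col4a6 had 10 to 31 reads each.

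What the WT cells did express was a laminin set with collagen XVIII. Per kb of exon, Col18a1, a basement membrane collagen that carries endostatin at its end, was highest at 248 and 252 normalised counts in the 2 WT libraries. Lamc1, the gamma1 chain shared by most laminins, followed at 149 and 154, with no overlap. Lama5 (53.2 and 99.1) and Lamb2 (55 and 84.2) overlapped each other and could not be ordered. Lama1, the alpha1 chain of the first embryonic laminin, stood at 29.7 and 44.2, and the poorly characterised collagen Col26a1 at 22.9 and 28.5. Lamb1 (15.8 and 19.4) and Col4a1 (11.9 and 21.5) overlapped, and Lamb3 was at 5.51 and 8.56. Col18a1 alone made up 32.9% of the summed level per kb of all 52 genes in WT. The summed normalised counts of the 52 genes were 5348 and 6082 in WT, 6248 and 6357 in Ezh2 KO, 6992 and 7554 in Ezh1/2 dKO and 8704 and 9289 in Ezh2 Y726D, with no overlap between lines.

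The comparisons with WT ask whether loss of EZH2, loss of both enzymes, or loss of catalysis with the complex kept changes the expression of these genes. A gene was called when limma, fitted over all 13872 genes tested, gave an adjusted p under 0.1 and a change of at least 2-fold. In Ezh1/2 dKO, 5 of the 29 tested genes were called, all higher, where 4.02% of all genes were called, 3.63% higher and 0.389% lower. They were the basement membrane chains Col4a1, Col4a2 and Lama4 and the fibril-forming chains Col11a1 and Col5a2. In Ezh2 Y726D, 4 were called where 2.72% of all genes were: Col4a1, Col4a2 and Col11a1 higher (1.66% of all genes were called higher) and Col26a1 lower (1.06% lower). In Ezh2 KO none was called, where 0.404% of all genes were, 0.0937% higher and 0.31% lower. The median log2 fold change over the 29 tested genes was 0.76 in Ezh2 Y726D and 0.51 in Ezh1/2 dKO but -0.31 in Ezh2 KO, beside -0.01, 0.01 and -0.01 over all genes tested. The 3 comparisons share the WT libraries.

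**Figure D1:**
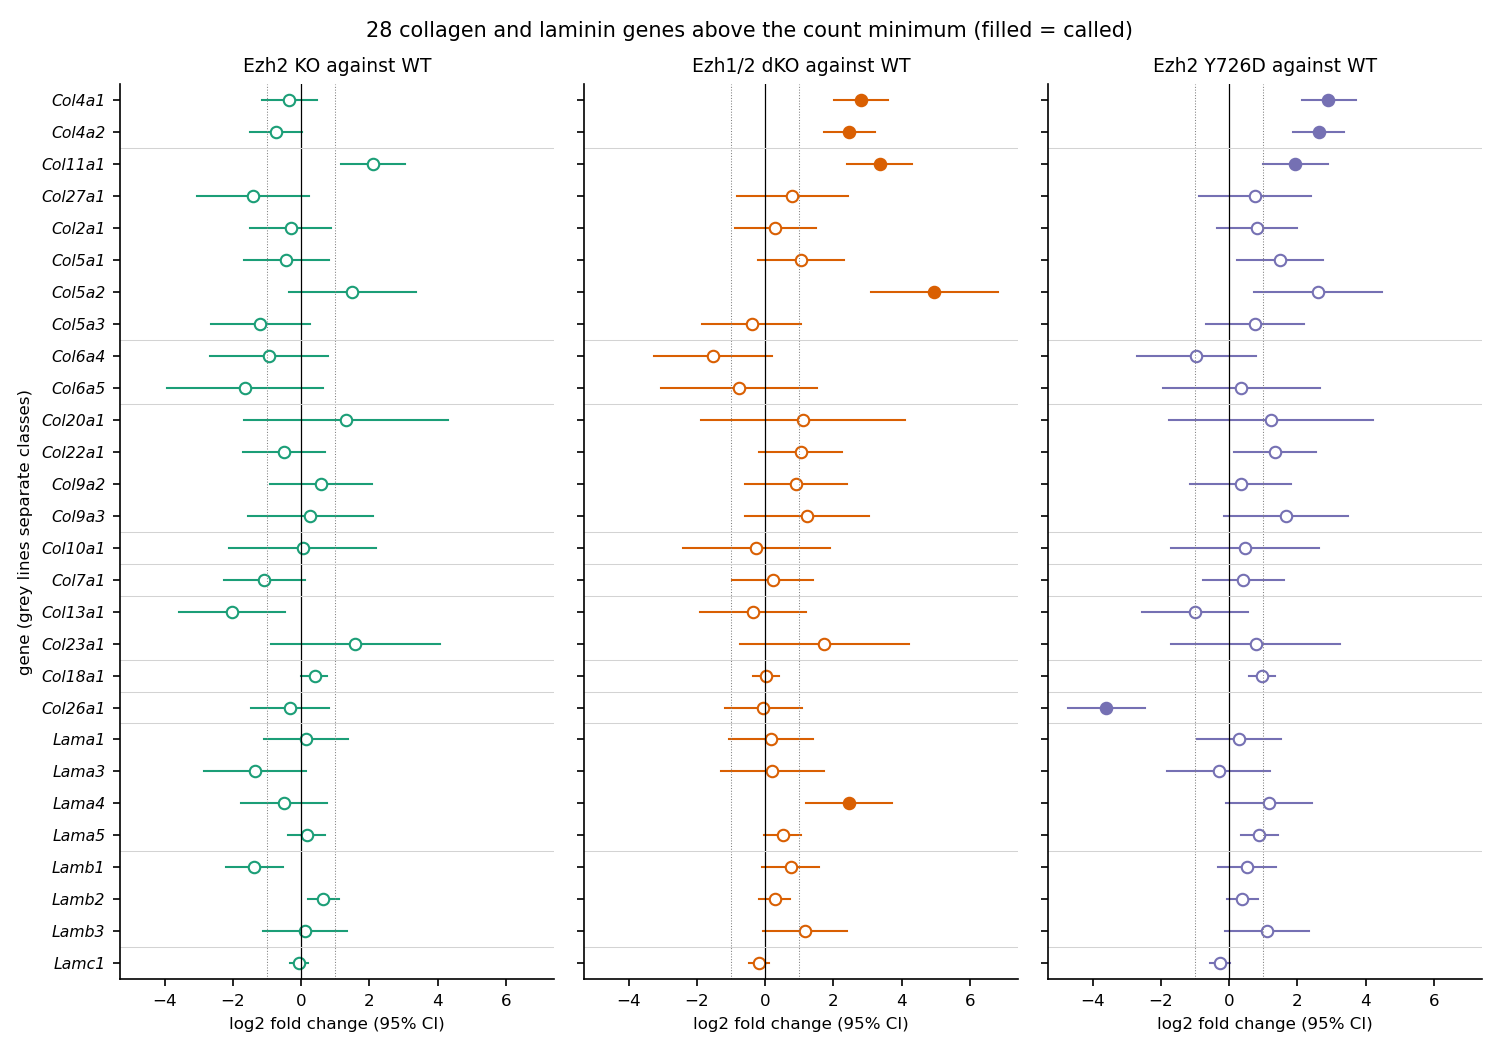
Log2 fold change against WT (x axis, on the log2(normalised count + 1) scale, with 95% confidence interval) of 28 of the 29 tested genes (y axis, ordered by class) in the 3 mutant lines with RNA-seq, from 2 libraries a line; filled points were called. Col4a1 and Col4a2 were called in Ezh1/2 dKO and Ezh2 Y726D with estimates of 2.47 to 2.91, and no gene was called in Ezh2 KO.

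The main collagen IV pair was higher than WT in Ezh2 Y726D as well as in Ezh1/2 dKO. Col4a1 (chr8:11198423-11312826, minus strand) and Col4a2 (chr8:11312805-11449287, plus strand) encode the chains of the most common collagen IV and lie head to head. Col4a1 had 147 and 80.9 normalised counts in WT, 117 and 61.9 in Ezh2 KO, 896 and 659.7 in Ezh1/2 dKO and 718 and 954 in Ezh2 Y726D. All 4 libraries of Ezh1/2 dKO and Ezh2 Y726D lay above all 4 of WT and Ezh2 KO. Against WT, Col4a1 rose by 2.81 on the log2 scale (SE 0.36, adjusted p = 0.00942) in Ezh1/2 dKO and by 2.91 (SE 0.36, adjusted p = 0.0102) in Ezh2 Y726D, which is 7-fold and 7.53-fold.

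Col4a2 went the same way at a lower level. It had 28 and 19.3 normalised counts in WT, 12.5 and 14.5 in Ezh2 KO, 150.02 and 118.98 in Ezh1/2 dKO and 138 and 158 in Ezh2 Y726D. Again the libraries of Ezh1/2 dKO and Ezh2 Y726D lay above all others. The rise was 2.47 (SE 0.33, adjusted p = 0.0114) in Ezh1/2 dKO and 2.62 (SE 0.33, adjusted p = 0.0113) in Ezh2 Y726D. Per kb of exon, Col4a1 was 4.08 to 9.06 times as abundant as Col4a2 over the 8 libraries. The counting ignored strand, and the 5′ ends of both genes overlap, so that reads there cannot be assigned to either gene.

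The other collagen IV genes also lie in head-to-head pairs, Col4a3 with Col4a4 (start sites 72 bp apart) and Col4a5 with Col4a6 (1309 bp apart). All 4 were below the count minimum in every comparison, with at most 0.535 normalised counts per kb for Col4a3 and Col4a4 and at most 1.47 for Col4a5 and Col4a6.

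**Figure D2:**
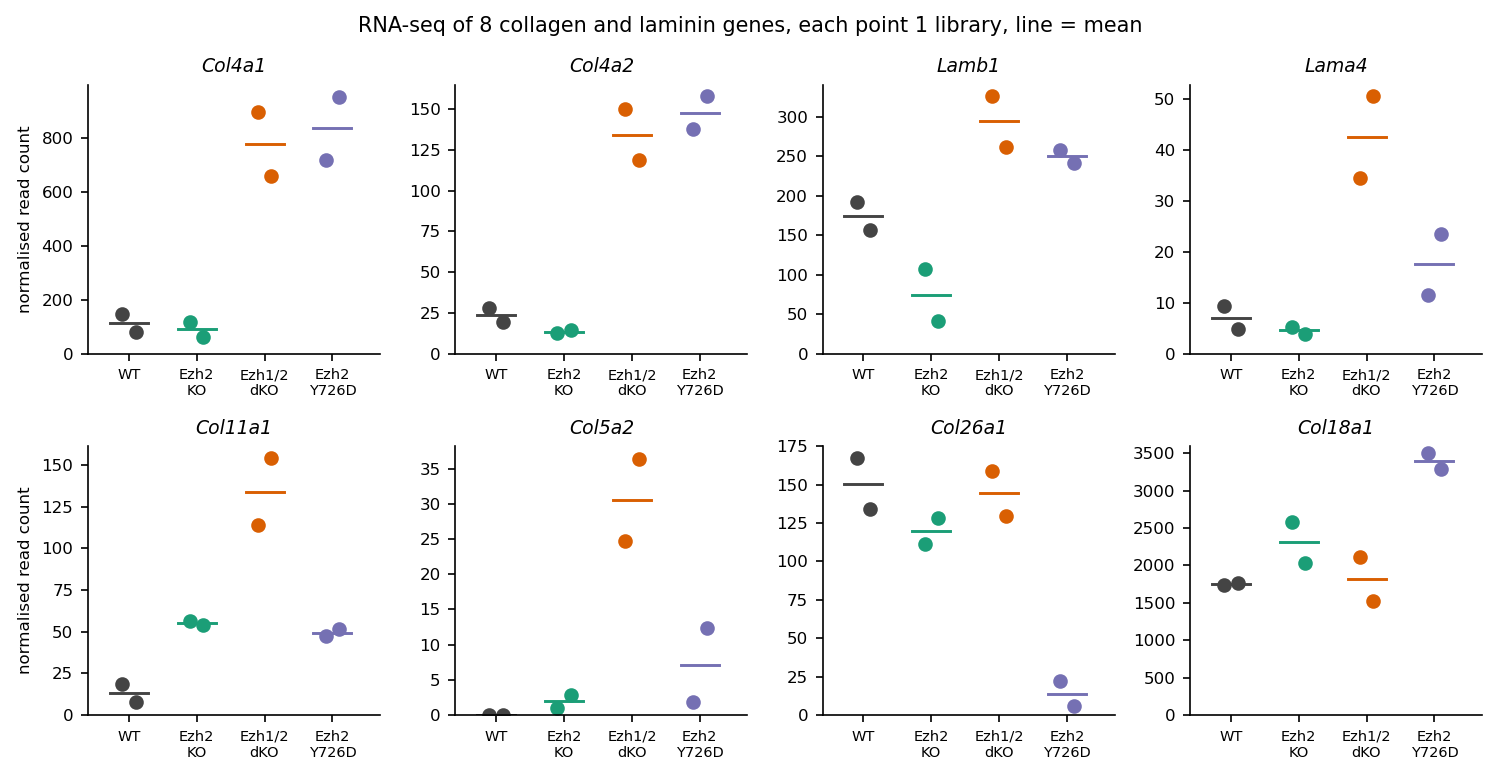
Normalised read counts (y axis, linear, from 0) of 8 collagen and laminin genes in the 4 lines with RNA-seq (x axis); each point is 1 of 2 libraries and each bar line the mean. Col4a1 and Col4a2 are high in Ezh1/2 dKO and Ezh2 Y726D, Col26a1 is low in Ezh2 Y726D (22.3 and 5.59), and Col5a2 is at 0 in both WT libraries.

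Between the mutant lines, Col4a1 and Col4a2 separated Ezh1/2 dKO from Ezh2 KO but not from Ezh2 Y726D. In Ezh1/2 dKO against Ezh2 KO, 5 of the 29 tested genes were called, all higher, where 3.58% of all genes were called, 3.52% higher and 0.0577% lower. Col4a1 was 3.16 higher on the log2 scale (SE 0.36, adjusted p = 0.00363) and Col4a2 3.21 higher (SE 0.33, adjusted p = 0.00231). Col5a2, Lama4 and Lamb1 were the others. In Ezh2 Y726D against Ezh1/2 dKO, the log2 differences were 0.11 for Col4a1 (95% interval -0.69 to 0.90) and 0.14 for Col4a2 (-0.61 to 0.89), intervals that hold differences of both signs. Only Col26a1 was called there, lower, where 1.68% of all genes were called, 0.187% higher and 1.49% lower.

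The Ezh1/2 dKO calls needed both of its libraries to pass the test, while the size of the changes stayed similar. Without replicate 1 or without replicate 2 of Ezh1/2 dKO, none of the 5 genes was called against WT, and only 5 and 3 genes of the whole table were. Over the left-out libraries, the log2 change was 2.38 to 3.23 for Col4a1, 2.21 to 2.73 for Col4a2, 2.76 to 3.94 for Col11a1, 4.69 to 5.23 for Col5a2 and 2.05 to 2.88 for Lama4. The adjusted p of Col4a1 ranged from 3.3e-15 to 0.143 over its alternatives. Col4a1 and Col4a2 were called in every alternative of Ezh2 Y726D against WT and of Ezh1/2 dKO against Ezh2 KO. In the latter, Col5a2 (log2 3.46, SE 0.83, adjusted p = 0.0756) and Lama4 (2.96, SE 0.56, adjusted p = 0.0318) lost their calls without any single library of either line and with quantile normalisation, and Col5a2 also with a pseudocount of 0.5, with adjusted p up to 0.528 and 0.369 over the alternatives, from 0.0067 and 0.0055.

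Some markers of other cell types were also higher in Ezh1/2 dKO and Ezh2 Y726D. The 13 markers of extraembryonic endoderm, a cell type that secretes collagen IV and laminin, summed to 34.7 and 66.4 normalised counts in WT, 52.3 and 60 in Ezh2 KO, 255 and 265 in Ezh1/2 dKO and 122 and 124 in Ezh2 Y726D. Of the 7 tested, Amn, Dab2, Gata4 and Thbd were called higher in Ezh1/2 dKO and Amn in Ezh2 Y726D. Thbd passed the count minimum through its level in Ezh1/2 dKO. Over all genes, 3.63% were called higher in Ezh1/2 dKO and 1.66% in Ezh2 Y726D, shares that apply to the other marker lists too. In Ezh1/2 dKO, Ttr had 0 reads and Afp, Cubn, Foxa2 and Sox17 had 1 to 10 reads in both libraries together, and in Ezh2 Y726D, Afp, Foxa2, Sox17 and Ttr had 0 reads. The 9 fibroblast and mesenchyme markers summed to 65.5 and 74.7 in WT, 35.5 and 61 in Ezh2 KO, 218 and 265 in Ezh1/2 dKO and 209.5 and 214 in Ezh2 Y726D, with Thy1 called in both of these lines and Fbn1 in Ezh1/2 dKO. Dcn and Lum, defining fibroblast genes, had at most 10 reads in Ezh1/2 dKO and 0 in Ezh2 Y726D. The 8 trophectoderm and epithelium markers summed to 345 and 443 in WT, 427 and 576 in Ezh2 KO, 663 and 923 in Ezh1/2 dKO and 605 and 1242 in Ezh2 Y726D, with Krt8 and Krt18 called in both of the latter. Eomes and Tfap2c were not called, at log2 changes of 0.04 and 0.10 in Ezh1/2 dKO and 1.09 and -0.65 in Ezh2 Y726D. Cdx2 was not called either, with 33 and 439.7 in the libraries of Ezh2 Y726D. Elf5 and Hand1 in Ezh1/2 dKO, and Elf5 in Ezh2 Y726D, had 1 to 10 reads in both libraries together. The part of other cell types in the collagen and laminin results was not tested, and in bulk RNA more cells of a type and more RNA per cell cannot be told apart.

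Among the laminins, 1 chain was called against WT. Lama4 (chr10:38685321-38829994, plus strand), the alpha4 chain of vessel and mesenchymal basement membranes, had 9.34 and 4.81 normalised counts in WT, 5.23 and 3.87 in Ezh2 KO, 34.6 and 50.6 in Ezh1/2 dKO and 11.6 and 23.5 in Ezh2 Y726D. The Ezh1/2 dKO libraries were the highest and those of Ezh2 Y726D lay between, also above WT. Lama4 rose by 2.47 in Ezh1/2 dKO (SE 0.56, adjusted p = 0.0571). Its estimate in Ezh2 Y726D was 1.18 (SE 0.56, adjusted p = 0.383). The Ezh1/2 dKO call was lost with quantile normalisation and without WT replicate 2 or either Ezh1/2 dKO library, with adjusted p of 0.0356 to 0.415 over its alternatives.

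Lamb1 (chr12:31950099-32014509, plus strand), the beta1 chain of the first embryonic laminin, differed between Ezh2 KO and Ezh1/2 dKO. It had 192 and 157 normalised counts in WT, 107 and 41.6 in Ezh2 KO, 327 and 262 in Ezh1/2 dKO and 258 and 242 in Ezh2 Y726D. Both Ezh2 KO libraries were below WT, and those of the other mutant lines above it. Lamb1 was 2.12 higher in Ezh1/2 dKO than in Ezh2 KO (SE 0.37, adjusted p = 0.0248), a call lost without either Ezh1/2 dKO library (adjusted p up to 0.219, from 6.4e-06). Against WT it was not called, with estimates of -1.37 in Ezh2 KO (SE 0.37, adjusted p = 0.263), 0.75 in Ezh1/2 dKO (adjusted p = 0.314) and 0.52 in Ezh2 Y726D (adjusted p = 0.615).

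None of the other laminin chains was called against WT. Lamc1 had 1002 to 1287 normalised counts over all 8 libraries, and its 95% intervals of log2 change against WT were -0.34 to 0.21 in Ezh2 KO, -0.46 to 0.10 in Ezh1/2 dKO and -0.55 to 0.01 in Ezh2 Y726D. Each of these intervals excludes a change of 2-fold. Lama5, the alpha5 chain found in most adult basement membranes, had 607 and 1130.4 in WT, 848 and 1010.2 in Ezh2 KO, 1139 and 1221 in Ezh1/2 dKO and 1498 and 1561 in Ezh2 Y726D. Both Ezh2 Y726D libraries were above all others, at an estimate of 0.88 (SE 0.24, adjusted p = 0.122) that was not called. Lama1 spread widely within lines, from 237 to 757 in the 2 libraries of Ezh2 Y726D alone. Lamb2 (309 and 474 in WT, 581 and 624 in Ezh2 KO) had an estimate of 0.65 in Ezh2 KO (adjusted p = 0.332). Lamb3, a chain of epithelial laminin at a lower level, had 24.1 and 37.4 in WT and 66.8 and 70.1 in Ezh1/2 dKO, with estimates of 1.16 there and 1.12 in Ezh2 Y726D.

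Of the fibril-forming collagens, Col11a1 (chr3:113733458-113923636, plus strand), a cartilage chain that sets fibril width, was above WT in all 3 mutant lines. It had 18.7 and 7.7 normalised counts in WT, 56.5 and 54.2 in Ezh2 KO, 114 and 154 in Ezh1/2 dKO and 47.3 and 51.5 in Ezh2 Y726D. Every mutant library was above both WT libraries, and those of Ezh1/2 dKO were the highest. Col11a1 rose by 3.35 in Ezh1/2 dKO (SE 0.42, adjusted p = 0.00942) and by 1.94 in Ezh2 Y726D (SE 0.42, adjusted p = 0.0598). In Ezh2 KO the estimate of 2.11 (SE 0.42, adjusted p = 0.113) was past the fold but not the p. The Ezh2 Y726D call was lost when only WT and Ezh2 Y726D were fitted and without WT replicate 2, Ezh2 Y726D replicate 2 or any single library of Ezh2 KO or Ezh1/2 dKO, with adjusted p of 0.0122 to 0.286 over its alternatives.

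Col5a2 (chr1:45431166-45560127, minus strand), the alpha2 chain of collagen V, which starts the assembly of collagen I fibrils, had 0 reads in both WT libraries. It had 1.05 and 2.9 normalised counts in Ezh2 KO, 24.7 and 36.4 in Ezh1/2 dKO and 1.78 and 12.3 in Ezh2 Y726D. Taking 3 reads over the WT libraries as an upper limit for a count of 0 (1.72 normalised counts), its mean was 17.7 times this limit in Ezh1/2 dKO and 4.09 times in Ezh2 Y726D. These ratios leave out the spread of the mutant libraries, and the lower Ezh2 Y726D library, at 1.78, was close to the limit. Col5a2 was called in Ezh1/2 dKO (adjusted p = 0.0256) but not in Ezh2 Y726D (adjusted p = 0.18). Its partner chain Col5a1 had 34.7 and 9.63 in WT, 45.3 and 33.7 in Ezh1/2 dKO and 54.4 and 53.7 in Ezh2 Y726D, with an estimate of 1.50 in the last (SE 0.56, adjusted p = 0.255). Col2a1, the main collagen of cartilage, stayed between 13.5 and 52.6 in all libraries, and Col27a1 between 0.968 and 14.8.

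Col26a1 (chr5:137217629-137359079, minus strand) was the 1 member called lower. It had 167 and 134 normalised counts in WT, 111 and 128 in Ezh2 KO, 159 and 129.6 in Ezh1/2 dKO and 22.3 and 5.59 in Ezh2 Y726D. Both Ezh2 Y726D libraries were below every other library. Against WT it fell by 3.60 on the log2 scale (SE 0.50, adjusted p = 0.0153), which is 12.1-fold, and it was 11.7-fold lower than in Ezh1/2 dKO (log2 -3.54, SE 0.50, adjusted p = 0.0166). The call against WT was lost only when these 2 lines were fitted alone (adjusted p = 0.122, from 3.8e-10 over the alternatives). The call against Ezh1/2 dKO was lost without either Ezh1/2 dKO library (adjusted p up to 0.169, from 4.4e-10).

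Col18a1 (chr10:76514923-76629293, minus strand) came close to a call in the same line. It had 1738 and 1769 normalised counts in WT, 2582 and 2032 in Ezh2 KO, 2105 and 1517 in Ezh1/2 dKO and 3496 and 3282 in Ezh2 Y726D. Its change in Ezh2 Y726D was 0.95 (SE 0.17, adjusted p = 0.0339), or 1.93-fold, just under the fold set for a call. In counts, the step in its mean from 1753 (SD 21.6, n = 2) in WT to 3389 (SD 151, n = 2) in Ezh2 Y726D was larger than that of any other of the 52 genes. Among the remaining collagens, the transmembrane chain Col13a1 (12 and 14.4 in WT, 2.09 and 2.9 in Ezh2 KO) and the collagen VI chain Col6a4 (10.7 and 10.6 in WT, 0.824 and 7.99 in Ezh1/2 dKO) had both mutant libraries below WT, at estimates of -2.03 (adjusted p = 0.397) and -1.52 (adjusted p = 0.32), and neither was called.

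Although no gene was called in Ezh2 KO by limma or by edgeR on the recovered reads, 5 of the 29 had an unadjusted p under 0.05 there, where 8.83% of all genes did: Col11a1, Lamb2 and Col18a1 higher and Col13a1 and Lamb1 lower. DESeq2 called Col11a1 and Lamb1, 2 of 29, where it called 1.04% of all genes and edgeR 0.216%. In the other comparisons edgeR called the same genes as limma, where it called 4.09% of all genes in Ezh1/2 dKO and 2.36% in Ezh2 Y726D against WT, 3.81% in Ezh1/2 dKO against Ezh2 KO and 1.82% in Ezh2 Y726D against Ezh1/2 dKO. DESeq2 did too (4.28%, 3.45%, 3.69% and 2.36% of all genes) and added Col11a1, lower, in Ezh2 Y726D against Ezh1/2 dKO. Both Ezh2 KO libraries lay above both WT libraries for 4 genes (18% of all genes) and below for 8 (17.6%). In the Ezh1/2 dKO line 10 lay above (28%) and 2 below (24.5%), and in Ezh2 Y726D 14 lay above (19%) and 5 below (18.1%). In Ezh1/2 dKO against Ezh2 KO, 17 of the 29 lay above (26.6%) and 1, Lamb2, below (26.9%).

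The peak lists ask which of these promoters PRC2 occupies. In WT cells, 16 of the 52 genes had a SUZ12 peak within 5 kb of a start site, where 17.2% of all genes did, and 26 had an H3K27me3 peak, where 22% of all genes did. Both were present at 13 genes: Col2a1, Col5a1 and Col27a1 of the fibril-forming chains, Col4a1 and Col4a2, Col12a1 and Col14a1 of the FACIT chains, Col13a1 and Col25a1 of the transmembrane chains, Col8a2, Col26a1, Lamb1 and Lamc3. Lama1 and Lama5, laminins that WT cells expressed, had SUZ12 without H3K27me3. Another 13 genes had H3K27me3 without SUZ12, Lama3 and Lama4 among them, and 23 had neither, Col11a1, Col5a2, Col18a1 and Lamc1 among them. The strongest SUZ12 peaks by -log10 p were at Col27a1 (98.3), Col2a1 (71.2, over 4206 bp), Col4a1 and Col4a2 (69.5, a shared peak of 2742 bp) and Col12a1 (64.1). The depth of the ChIP-seq libraries is unknown, so that -log10 p orders peaks within a list but is not compared between lists.

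**Figure D3:**
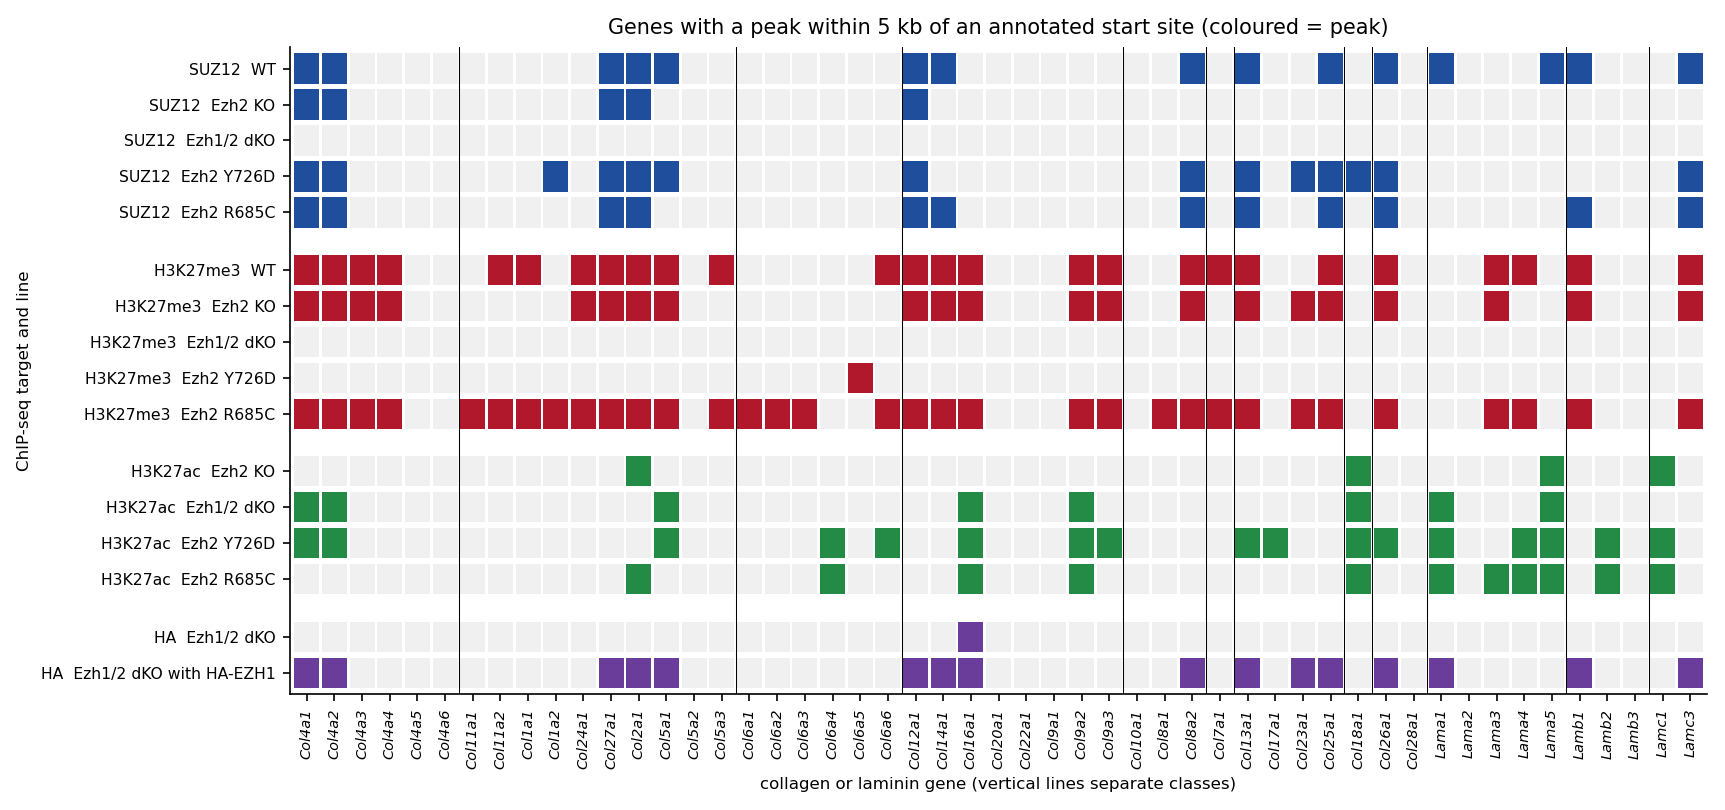
Presence of a peak (coloured cell) within 5 kb of an annotated start site, for 51 of the 52 genes (x axis, grouped by class) and each ChIP-seq target and line (y axis), 1 library per row. SUZ12 and H3K27me3 fill no cell in Ezh1/2 dKO, and SUZ12 fills 14 cells in Ezh2 Y726D where H3K27me3 fills 1.

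SUZ12 was kept at 11 of the 16 promoters in Ezh2 Y726D and at 12 in Ezh2 R685C, at 5 in Ezh2 KO and at none in Ezh1/2 dKO, where 1.16% of all genes had a peak. Over all genes with SUZ12 in WT the shares were 60.4%, 55.3%, 28.3% and 6.78%, beside 68.8%, 75%, 31.2% and 0% here. The 5 kept in Ezh2 KO were Col12a1, Col27a1, Col2a1, Col4a1 and Col4a2, which are also those with the 5 highest -log10 p in WT. The ranking of the lines changed with the peak threshold, since the SUZ12 peaks of Ezh2 Y726D had a -log10 p of 10.1 to 19.7. At p of at most 1e-20, SUZ12 was listed at 12 of the 52 genes in WT, 9 in Ezh2 R685C, 2 in Ezh2 KO and 0 in Ezh2 Y726D. In Ezh2 Y726D, 3 promoters without SUZ12 in WT had a peak, Col18a1, Col1a2 and Col23a1, giving 14 in all (12.1% of all genes). In Ezh2 R685C there were 12 (9.78%), all with SUZ12 in WT, and in Ezh2 KO 5 (4.85%). HA-tagged EZH1 put back into Ezh1/2 dKO cells had a peak at 16 genes (13.1% of all genes), 14 of them with SUZ12 in WT. In the same cells without the tagged protein, 1 gene, Col16a1, had an HA peak (3.63%), at nearly the same place as with it.

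H3K27me3 followed another order of the lines. It was listed at 21 genes in Ezh2 KO (17% of all genes), at 0 in Ezh1/2 dKO (0.115%), at 1, Col6a5, in Ezh2 Y726D (1.38%) and at 33 in Ezh2 R685C (28%). Of the 26 genes with H3K27me3 in WT, 20 kept it in Ezh2 KO and all 26 in Ezh2 R685C. The matching shares over all genes with H3K27me3 in WT are not given here. The 7 genes with H3K27me3 in Ezh2 R685C and not in WT were Col11a1, Col1a2, Col23a1, Col6a1, Col6a2, Col6a3 and Col8a1, none of which had SUZ12 in WT. At p of at most 1e-20, H3K27me3 was listed at 12 genes in WT, 12 in Ezh2 KO, 0 in Ezh2 Y726D and 26 in Ezh2 R685C. At Col11a1 the Ezh2 R685C peak spanned 503 bp (-log10 p 12.7). The 13 genes with SUZ12 and H3K27me3 together in WT all kept H3K27me3 in Ezh2 KO, although only 5 of them kept a SUZ12 peak there. The matching shares over all genes with both in WT are not given here either. Genes with SUZ12 in WT were alike in general. In Ezh2 KO, H3K27me3 was listed at 81.2% of the 16 here and at 80.7% of all such genes. SUZ12 was listed there at 31.2% and 28.3%.

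H3K27ac was sparse at these genes. It was listed at 5 in Ezh2 KO (48.9% of all genes), 9 in Ezh1/2 dKO (37.1%), 18 in Ezh2 Y726D (60.4%) and 12 in Ezh2 R685C (59.1%), and at 32 genes in none of the 4 lines. At p of at most 1e-20 the counts were 2, 1, 8 and 6, so that Ezh2 KO and Ezh1/2 dKO changed order. A WT list of H3K27ac was not analysed here, so that a gain over WT cannot be read. Col18a1 and Lama5, both well expressed, had H3K27ac in all 4 lines. It was listed in Ezh1/2 dKO and Ezh2 Y726D and not in Ezh2 KO at 6 genes: Col4a1, Col4a2, Col5a1, Lama1, Col9a2 and Col16a1. Of the 16 genes with SUZ12 in WT, 3 had H3K27ac in Ezh2 KO (18.8%, beside 17.9% of all genes with SUZ12), 6 in Ezh1/2 dKO (37.5%, beside 21.5%), 8 in Ezh2 Y726D (50%, beside 49.9%) and 4 in Ezh2 R685C (25%, beside 25.1%). The 36 genes without SUZ12 had it at 5.56%, 8.33%, 27.8% and 22.2% in these lines, where all genes without SUZ12 had it at 55.3%, 40.3%, 62.6% and 66.1%.

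The collagen IV promoter shows these marks side by side. Its WT SUZ12 peak ran from -1459 to 1282 bp relative to the Col4a1 start site. The peak measured 1243 bp in Ezh2 KO (-log10 p 15.3), 1943 bp in Ezh2 R685C (20.9) and 224 bp in Ezh2 Y726D (10.1, just inside the threshold of 10). H3K27me3 covered 5039 bp in 1 peak in Ezh2 KO (-log10 p 124) and 5 separate stretches totalling 3929 bp in WT. With the depth of the lists unknown, these widths do not compare the amount of H3K27me3 between lines. The paper reports a global loss of H3K27me3 in Ezh2 KO in bulk, by western blot. From its ChIP-seq it reports that most H3K27me3 sites of WT remained in Ezh2 KO. The paper also reports that the H3K27me3 left at PRC2 sites did not spread beyond SUZ12 peaks. H3K27ac was listed over the start site in Ezh1/2 dKO (1088 bp, -log10 p 17.3) and Ezh2 Y726D (1789 bp, 33.4) and not in Ezh2 KO or Ezh2 R685C. All 300 bases of the printed intron stretch of Col4a2 lie within the H3K27ac peak of Ezh2 Y726D and 272 within that of Ezh1/2 dKO.

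**Figure D4:**
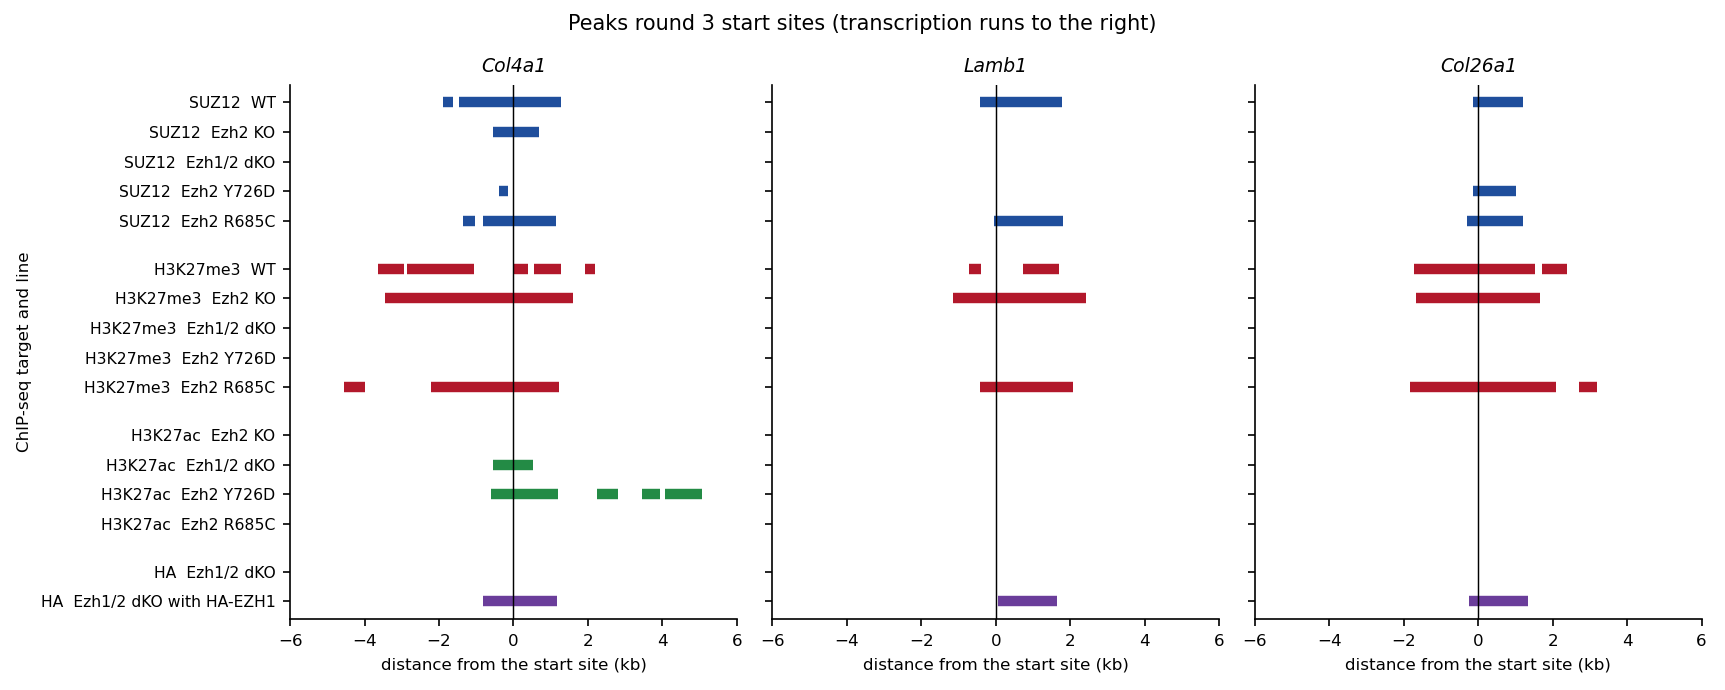
Peaks listed round the start sites of Col4a1, Lamb1 and Col26a1 (x axis, distance in kb with transcription to the right) by ChIP-seq target and line (y axis); each bar is 1 peak, drawn to scale. Over the Col4a1 start site H3K27ac is listed in Ezh1/2 dKO and Ezh2 Y726D, and none is drawn at Lamb1 or near the Col26a1 start.

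Lamb1 and Col26a1 had the same marks in WT with other outcomes. At Lamb1, SUZ12 was listed in WT (2201 bp, -log10 p 41) and Ezh2 R685C (1855 bp, 24.9), H3K27me3 in WT, Ezh2 KO and Ezh2 R685C, and H3K27ac in no line. At Col26a1, SUZ12 was listed in WT (-log10 p 43.6), Ezh2 R685C (48.9) and Ezh2 Y726D (17.6, 1153 bp over the start site), and H3K27me3 in WT, Ezh2 KO and Ezh2 R685C. The Ezh2 Y726D line, where Col26a1 RNA was low, had no H3K27me3 at it and an H3K27ac peak of 399 bp (-log10 p 10.1) at an internal start site only. Lama4 likewise had H3K27ac in Ezh2 Y726D and Ezh2 R685C at an internal start site and not at the outermost. Col11a1 and Col5a2 had no SUZ12, H3K27me3 or H3K27ac peak in the lists used here for WT and for the Ezh2 KO, Ezh1/2 dKO or Ezh2 Y726D cells.

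Set beside the RNA, 11 of the 16 genes with SUZ12 in WT were tested. In the Ezh1/2 dKO line, 2 of the 11 were called higher (18.2%), beside 12.3% of all tested genes with SUZ12 in WT, with a median log2 change of 0.51 beside 0.73. In Ezh2 Y726D 2 were called higher (18.2%, beside 6.84%), with a median of 0.76 beside 0.44. Both times these were Col4a1 and Col4a2, which share the peak. Of the 18 tested genes without SUZ12, 3 were called higher in Ezh1/2 dKO (16.7%, beside 2.2% of all genes without SUZ12) and 1 in Ezh2 Y726D (5.56%, beside 0.807%). The other 5 genes with SUZ12, Col12a1, Col14a1, Col25a1, Col8a2 and Lamc3, stayed below the count minimum in a mean over all lines, Ezh1/2 dKO and Ezh2 Y726D included.

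CpG content differed between genes with and without SUZ12. Within 500 bp of the outermost start site, the 16 genes with SUZ12 in WT held a median of 64.5 CpGs (44 to 97) and the 36 without it 23.5 (3 to 101), where over all genes the medians were 64 and 50. Collagen and laminin promoters without SUZ12 thus held fewer CpGs than promoters without SUZ12 in general. The highest of those without SUZ12 was Lamc1 with 101 CpGs. Col4a1 and Col5a1 held 97 each, Lama5 74, Col26a1 52, Lamb1 51 and Col18a1 44. The genes higher in Ezh1/2 dKO without SUZ12 held 35 (Col11a1), 25 (Lama4) and 15 (Col5a2).

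**Figure D5:**
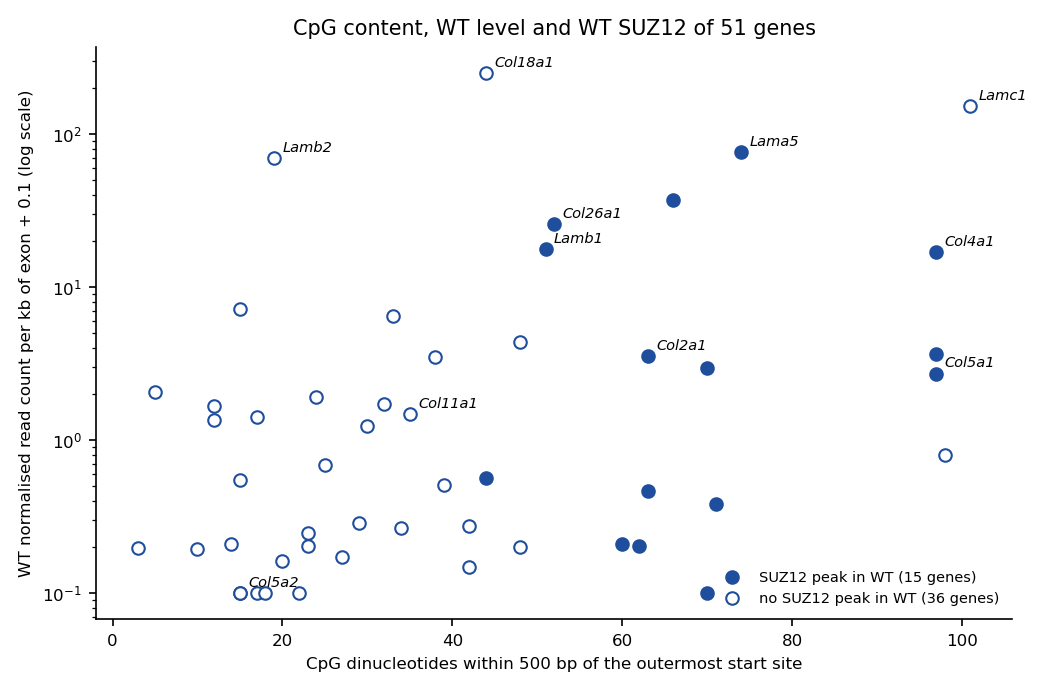
CpG dinucleotides within 500 bp of the outermost start site (x axis) against the mean WT normalised count per kb of exon plus 0.1 (y axis, log scale) for 51 of the 52 genes, coloured by WT SUZ12 peak. Genes with SUZ12 hold 44 to 97 CpGs and lie at low and high RNA levels alike, and the genes without SUZ12 hold a median of 23.5.

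H3K27me1 and H3K27me2 regions ran over the gene bodies. The lists keep regions down to p of 0.1 and give no depth, and they were compared only on chromosomes present in all 4 lists, which left 27 genes for H3K27me1 and 50 for H3K27me2 and left out Col4a1 and Col4a2. The median share of the gene covered by H3K27me1 was 4.85% in WT against 38.9% in Ezh2 KO, with 18.8% for Ezh1/2 dKO and 23.2% for Ezh2 Y726D, where over all genes it was 20.9%, 0%, 9% and 16.1%. For H3K27me2 the medians were 19.4%, 39.7%, 30.2% and 33.7%, where over all genes they were 14.7%, 0%, 13.5% and 15.1%. These permissive lists thus hold regions also in Ezh1/2 dKO, a line without either enzyme, and coverage by them is not an amount of the mark. The paper scaled its ChIP-seq of these marks to added Drosophila chromatin. It reports H3K27me2 in Ezh2 KO as lost inside poorly expressed genes and gained at Polycomb-bound promoters. H3K27me1 is reported there as gained in poorly transcribed genes and lost at highly transcribed ones. Coverage was higher in Ezh2 KO than in WT at 36 of 50 genes for H3K27me2 (72%, beside 26.9% of all genes) and at 20 of 27 for H3K27me1 (74.1%, beside 34.4%).

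The genes below the count minimum went one way for H3K27me2 and those above it both ways. Coverage was higher in Ezh2 KO than in WT at all 23 genes below the minimum, and higher at 13 and lower at 14 of the 27 above it. For neither mark were these directions counted over all genes of the same level. In Ezh2 KO, 6 of the 50 genes and 54.2% of all genes had no H3K27me2 region. The greater length of collagen and laminin genes was not taken into account. Among the 23 genes below the count minimum, median H3K27me2 coverage was 11.3% in WT and 40.5% in Ezh2 KO, and all genes below the minimum went from 9.85% to 34.3%. Among the 27 members at or above it, coverage was 30.2% and 24.8%, where all such genes went from 16.4% to 0%. Single genes showed both directions. In the region lists, H3K27me2 covered 14.4% of Col27a1 in WT and 91.9% in Ezh2 KO, 55.7% and 74.8% of Col2a1, and 27.1% and 52.6% of Col26a1. It covered 52.4% of Col18a1 in WT and 0% in Ezh2 KO, and 36.2% and 1.83% of Lama1. For H3K27me1, coverage was higher in Ezh2 KO at 10 and lower at 6 of the 16 genes at or above the minimum, whose median was 12.3% in WT and 37.8% in Ezh2 KO, and higher at 10 of the 11 below it, whose median was 2.74% and 48.4%. Among the laminins, H3K27me1 covered 96.4% of Lama5, 75% of Lamc1 and 77.2% of Lama1 in WT and 0%, 0% and 4.12% in Ezh2 KO, whereas Lamb3 had 0% in WT and 75.6% in Ezh2 KO. In ATAC-seq, the median of the highest -log10 p within 1 kb of a start site was 1.79, 2.01, 1.74 and 1.85 in the 4 lines at these genes and 1.83, 1.94, 1.77 and 1.87 over all genes. The depth of the ATAC-seq libraries is unknown too, so that these values are set beside all genes within a line and are not compared between lines.

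Genes that make, anchor or cut these chains were followed as lists that hold no collagen or laminin. Of 24 tested genes of collagen synthesis and crosslinking, 4 were called higher in Ezh1/2 dKO against WT: P4ha2, a prolyl hydroxylase subunit (80 and 46.2 normalised counts in WT, 218 and 273 in Ezh1/2 dKO, log2 1.99, adjusted p = 0.0295), Plod1, a lysyl hydroxylase (log2 1.11), the lysyl oxidase Loxl2 (log2 1.35) and the procollagen protease Adamts14 (log2 1.41). None was called in Ezh2 KO. Over all genes tested, 3.63% were called higher and 0.389% lower in Ezh1/2 dKO against WT. The shares were 1.66% and 1.06% in Ezh2 Y726D and 0.0937% and 0.31% in Ezh2 KO. In Ezh2 Y726D 1 was called, lower: Serpinh1, the collagen chaperone HSP47, with 598 and 704 normalised counts in WT and 370 and 164 in Ezh2 Y726D (log2 -1.39). The median log2 change of the list was 0.41 in Ezh1/2 dKO, 0.08 in Ezh2 Y726D and -0.11 in Ezh2 KO.

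Of 11 tested basement membrane partners, Smoc1 was called lower in Ezh2 KO (from 378 and 348 normalised counts in WT, log2 -1.57, adjusted p = 0.0124). Npnt was called higher in Ezh1/2 dKO (log2 1.78, adjusted p = 0.0615), and Frem2 lower in Ezh2 Y726D (log2 -2.60). Of 10 tested collagen and laminin receptors, the collagen receptor Ddr2 was called higher in Ezh1/2 dKO (228 and 170.4 in WT, 545 and 792 in Ezh1/2 dKO, log2 1.73) and the laminin receptor Bcam lower (879 and 544 in WT, 349 and 239 in Ezh1/2 dKO, log2 -1.26), and none in the other 2 lines. Ddr2 had 124 and 71.6 counts in Ezh2 Y726D, where it was called lower than in Ezh1/2 dKO, as were 1.49% of all genes. Of 6 tested proteases and inhibitors, Timp3, an inhibitor of matrix proteases, was called higher in Ezh1/2 dKO (log2 1.69) and Ezh2 Y726D (log2 2.35), and Mmp2, a gelatinase, in Ezh2 Y726D (log2 2.24). The medians of these 3 lists against WT ran from -0.11 to 0.93. The shares of all genes called against WT, given with the synthesis list above, apply to these lists too.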

How the data were processed

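RNA-seq (SMART-seq2) was deposited as read counts per gene that the authors had made with TopHat and HTSeq-count on mm9, without strand, and divided by DESeq2 size factors. This deposited signal, as the authors' normalised read counts are called here, was in whole multiples of 1 read for 100% of values (tolerance 0.01), so read counts were recovered for edgeR and DESeq2. Peak lists were deposited by the authors with -log10 p per peak, from reads aligned to mm9 with Bowtie, freed of duplicates with PICARD and passed to MACS2, 1 library at a time. HA lists held positions only. Fold changes and p-values of the authors' own RNA comparisons were not used.

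limma 3.58.1 (trend, R 4.3.3) was fitted to log2(normalised count + 1) of genes with a mean of at least 5, over all 8 libraries, with Benjamini-Hochberg adjustment over 13872 genes. Fold changes on this scale understate the change of low genes. A promoter had a peak when one of p at most 1e-10 overlapped 5 kb on either side of an annotated start site by 1 bp or more. Of 18055 genes, 17448 matched the GENCODE mm9 annotation by symbol or synonym, Col26a1 through the synonym Emid2. The 3-read floor for counts of 0 covers counting error only. Alternatives were other pseudocounts, minimums, normalisation, edgeR 4.0.16, DESeq2 1.42.0, a replicate block, fits of 2 lines, each library left out, and stricter peaks or windows. The fit was tested on simulated data with known changes.

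The members, lists and tests were chosen with earlier results of these data known. Named were members called against WT, the 3 largest rises and falls per comparison (only where the libraries of the mutant did not overlap WT), the 10 highest in WT, the 5 strongest SUZ12 promoters and the collagen IV pairs. Called genes of the lists were named too. Other members are named by their peaks, and Col5a1, Col1a1, Col1a2 and Col6a1 to Col6a3 were picked after their values were seen. The values of 1 laminin gene are not reported here by name or in the plots, and it is kept in the counts over all members.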

Additional observations from a re-analysis of the deposited data

Results flagged for a closer look

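Some effects differed between mutant lines by a limma test of the difference itself, with 2 libraries a line. Between Ezh1/2 dKO and Ezh2 KO, the log2 difference was 3.16 for Col4a1, 3.21 for Col4a2, 3.46 for Col5a2, 2.96 for Lama4 and 2.12 for Lamb1, with both Ezh1/2 dKO libraries above both Ezh2 KO libraries for each gene. Between Ezh2 Y726D and Ezh1/2 dKO it was -3.54 for Col26a1, with both Ezh2 Y726D libraries below. The calls of Col5a2 and Lama4 were lost without any single library of the 2 lines compared and with quantile normalisation, that of Col5a2 also with a pseudocount of 0.5, and those of Lamb1 and Col26a1 without either Ezh1/2 dKO library.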

How the results depend on the processing

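With 2 libraries a line, the called members depended on the libraries more than on the other settings. Leaving out 1 library at a time, with the lone library assumed to vary like the others, gave 0 to 1 called member in Ezh2 KO against WT, 0 to 6 in Ezh1/2 dKO against WT, 3 to 5 in Ezh2 Y726D against WT, 2 to 7 in Ezh1/2 dKO against Ezh2 KO and 0 to 2 in Ezh2 Y726D against Ezh1/2 dKO. DESeq2 called 2 in Ezh2 KO against WT and 2 in Ezh2 Y726D against Ezh1/2 dKO. With a minimum mean of 20, 3 were called in Ezh1/2 dKO against WT and 3 against Ezh2 KO, since fewer genes were tested. Quantile normalisation gave 3 in Ezh1/2 dKO against Ezh2 KO. Fits of only the 2 lines compared gave 2 in Ezh2 Y726D against WT and 8 in Ezh1/2 dKO against Ezh2 KO. Where not stated, the cause was not tested. The 15 estimates of called members kept their direction in all 251 alternative values and their call in 216. Of 428 values for 26 estimates that were not called, 15 passed the threshold and 7 changed sign: Col4a1 in Ezh2 KO against WT (-0.81 to 0.10 over the left-out libraries, 0.07 without WT replicate 1 and 0.10 without Ezh2 KO replicate 2), Lamc1 in Ezh1/2 dKO against WT (0.03 with quantile normalisation), and Col4a1 (-0.002 with quantile normalisation, -0.11 without Ezh1/2 dKO replicate 2, -0.10 without Ezh2 Y726D replicate 2, -0.11 to 0.33 over the left-out libraries) and Col4a2 (-0.02 without Ezh1/2 dKO replicate 2, up to 0.31 over the left-out libraries) in Ezh2 Y726D against Ezh1/2 dKO.

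Over all genes, the calls of 56, 557, 377, 496 and 233 in the 5 comparisons moved by over 1.5 times in several alternatives, such as 144 with DESeq2 in Ezh2 KO against WT, 176 with quantile normalisation and 1207 with only the 2 lines in Ezh1/2 dKO against Ezh2 KO, and 32 with only the 2 lines in Ezh2 Y726D against WT. Deviations of libraries with the same replicate number correlated at -0.41 to -0.07 between WT and a mutant line. Between mutant lines the correlations were all positive, at 0.22 to 0.29. The replicate numbers thus did not pair all lines in the same direction. Whether libraries of the same number share a batch was not tested. With the replicate block, 0, 5, 4, 5 and 1 members were called in the 5 comparisons, and 34, 514, 330, 412 and 162 of all genes.

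For peaks, a threshold of p at most 1e-20 left SUZ12 at 2 genes in Ezh2 KO and 0 in Ezh2 Y726D, H3K27me3 at 12 in WT, 12 in Ezh2 KO and 0 in Ezh2 Y726D, and H3K27ac at 2 in Ezh2 KO, 1 in Ezh1/2 dKO, 8 in Ezh2 Y726D and 6 in Ezh2 R685C. A window of 1 kb left H3K27me3 at 0 in Ezh2 Y726D and H3K27ac at 7 in Ezh2 R685C, and outermost start sites alone left H3K27ac at 7 in Ezh2 R685C. The 23 genes below the count minimum were not tested, so that their differences between lines are not known at this depth.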
